A study of Mus musculus with 12 samples.

Results

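Transitional B cells and marginal zone B cells derived from them in culture were compared in wild-type mice, in 6 of the 12 mouse B cell libraries of the series. The members are 3 libraries of sorted transitional B cells (TrB_WT) and 3 libraries of ex vivo-derived marginal zone B cells (eMZB_WT), taken by their labels. The TrB_WT cells were splenic cells of female C57BL/6J mice, sorted without stimulation as B220+ CD93+ cells that lacked Thy1.1, F4/80 and CD11b. The eMZB_WT cells came from transitional B cells enriched from the same organ, kept in culture with BAFF, which keeps B cells alive, and DL1, a ligand of Notch receptors, for 3 days. They were then sorted as B220+ CD21+ CD1d+ cells with the same exclusions. Culture, stimulation and sort gate all differ between both groups, so their parts in any change cannot be told apart. The other 6 libraries (TrB_KO and eMZB_KO) came from mice labelled as LSD1 knockouts, for which the labels name neither the allele nor the promoter that drives its deletion. They entered the fit for the spread and for 1 comparison at the end. Ages are not among the labels, nor is it said whether replicates were separate animals, so p-values rest on library-to-library spread that may be technical alone.

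Transitional B cells are recent arrivals from bone marrow that still express immature surface proteins and go on to become follicular or marginal zone B cells. Marginal zone B cells lie at the border of the splenic white pulp, answer blood-borne antigens quickly, and carry high CD21 and CD1d. Their formation in mice needs NOTCH2, which is engaged by the ligand DL1 and then acts through the DNA-binding factor RBPJ, and BAFF, which signals through its receptor to the noncanonical NF-kB pathway.

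Values are FPKM (reads per kilobase of gene and per M reads) divided by 1 factor per library, the median ratio of its genes to their geometric means, and are called scaled FPKM. A log2 change is eMZB_WT minus TrB_WT of log2(scaled FPKM + 1) with the standard error (SE) of a limma fit, n = 3 libraries per group. A gene rose or fell where its Benjamini-Hochberg adjusted p over all 9842 listed genes was under 0.05. Of these genes 1440 rose (14.6%) and 1253 fell (12.7%), of which 224 (2.28%) and 273 (2.77%) did so by at least 2-fold. The 3 libraries of one group lay wholly above those of the other for 2142 genes (21.8%) in eMZB_WT and for 2298 (23.3%) in TrB_WT. These shares are the background for counts of members below in this main fit, and other settings have their own. Without both wild-type replicate 3 libraries 1074 of the 9842 genes rose and 897 fell. With the receptor-gene level subtracted, an alternative described below, 1426 rose and 932 fell. The scaling sets the median gene near 0 (a log2 change of -0.0016), while on the values as deposited it was 0.67, so each change is relative to the median gene. As deposited, 1779 genes rose and 117 fell, which is the background for counts as deposited. Of the 1253 falls 710 had the opposite sign there, the deepest of them at -0.85. The factors were 0.613 to 0.737 in TrB_WT and 1.03 to 1.32 in eMZB_WT, so leaving them out moves changes upward. Rises therefore keep their sign as deposited by construction, and so do falls larger than this shift. All 224 rises of at least 2-fold kept their sign and call as deposited, and all 273 such falls kept their sign and 108 their call. The kept signs are thus no test of these changes.

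The read totals behind the values, recovered from the steps of the FPKM values, were 11.6 to 13.4 M reads in TrB_WT and 7.24 to 19.3 M reads in eMZB_WT. The listed genes held 16.7% to 20.1% of these reads in TrB_WT and 27.8% to 35.3% in eMZB_WT, so this share moved with the group. A set of 82 olfactory, vomeronasal and trace amine receptor genes, chosen after the values were seen because B cells are not known for them, had median deposited levels of 1.40, 1.33 and 1.37 FPKM in TrB_WT and 1.11, 1.35 and 1.31 FPKM in eMZB_WT. After scaling these medians were 2.29, 1.81 and 2.21 against 0.873, 1.32 and 0.994. Of the 82 genes 10 were called lower by limma, near the 12.7% of all genes, and 0 higher beside 14.6% of all genes. The part of what lowers these scaled medians in the falls of low genes was not tested. For that reason genes are named below mostly where the higher group averaged at least 5 scaled FPKM, which held for 167 of the 224 rises and 130 of the 273 falls of at least 2-fold. Among the 6 libraries the first principal component held 63.6% of the variance and split the groups, and the next, with 17.2%, set TrB_WT replicate 3 apart from the other 5.

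Kdm1a, which encodes LSD1, did not differ between the groups beyond its spread, but 1 library in each group stood apart. Its scaled FPKM was 8.54, 7.93 and 3.47 in TrB_WT and 7.53, 8.63 and 4.68 in eMZB_WT (log2 change 0.097, SE 0.26, adjusted p = 0.806). The libraries labelled TrB_WT replicate 3 and eMZB_WT replicate 3 lay nearer to the knockout libraries, which ranged from 2.53 to 3.35, than to the other wild-type libraries. Without both of them 1074 genes rose and 897 fell, and 213 of the 224 larger rises and 201 of the 273 larger falls kept their call. Counts of this kind are given below for the gene groups, except where they differ from the main ones by no more than 1 gene in either direction. As deposited, the lists described below held members called lower in 3 cases, transitional and immature B cell genes (3), regulators of G protein signalling (2) and the BCL2 family (1).

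**Figure D1:**
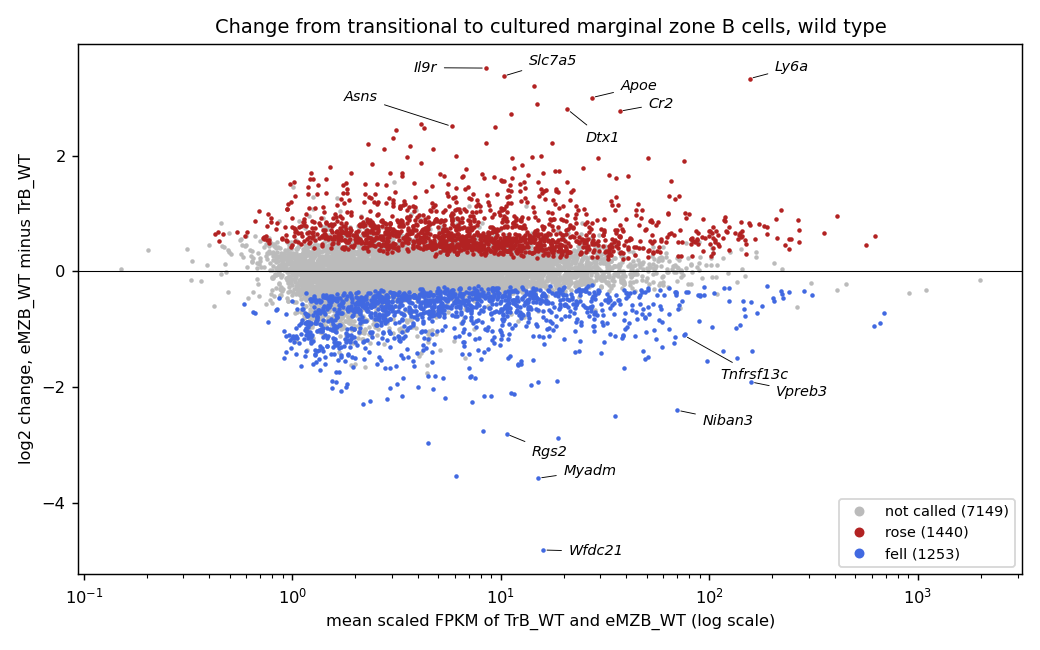
Log2 change from TrB_WT to eMZB_WT (vertical axis) against the mean scaled FPKM of both groups (horizontal axis, log scale) for 9842 genes, with genes that rose in red, genes that fell in blue and the others in grey. The labelled genes are among the largest changes, and the median gene lies at a log2 change near 0.

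The sorting markers moved in part with the gates. Cr2, which encodes the complement receptor CD21 used to sort eMZB (Entrez 12902, chromosome 1, 195136811 to 195176880, mm10), had 8.49, 7.79 and 10.02 in TrB_WT and 60.9, 64.9 and 70.7 in eMZB_WT, a mean 7.47-fold higher (log2 change 2.77, SE 0.11, adjusted p = 2.2e-08). Every eMZB_WT library lay above every TrB_WT library, with little spread inside each group. Cd93, the marker of the transitional gate (Entrez 17064, chromosome 2, 148436651 to 148443535), went the other way, with 4.17, 5.11 and 5.72 in TrB_WT and 0.697, 1.10 and 0.827 in eMZB_WT (log2 change -1.68, SE 0.14, adjusted p = 3.7e-06). Cd1d1, which encodes the other eMZB gate protein, had 19.8, 22.2 and 24.8 in TrB_WT and 22.8, 23.02 and 22.5 in eMZB_WT, and the groups overlapped (log2 change 0.038, SE 0.094, adjusted p = 0.796). Ptprc, the gene of B220, overlapped too, with 48.9, 46.5 and 59.1 in TrB_WT and 55.3, 55.5 and 56.5 in eMZB_WT (log2 change 0.12, SE 0.10, adjusted p = 0.407). Since cells were gated on CD21, CD1d and CD93, the levels of Cr2, Cd1d1 and Cd93 describe the sort as well as the culture. Of the gates' excluded proteins, Adgre1 (F4/80) had 2.32, 2.43 and 2.05 in TrB_WT and 0.521, 0.581 and 0.882 in eMZB_WT and Itgam (CD11b) 0.777, 0.873 and 1.02 in TrB_WT and 0.180, 0.280 and 0.376 in eMZB_WT, low in all 6 libraries, and Thy1 is not among the listed genes.

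Genes of marginal zone B cells rose as a group. Of 16 listed members 11 rose, 6 of them by at least 2-fold, 1 fell and 4 were not called, with a median log2 change of 0.86 beside -0.0016 for all genes, and without both replicate 3 libraries 10 rose and 1 fell. The 11 and the 6 include Cr2, whose product CD21 was used in the eMZB gate. Il9r, the receptor chain for interleukin 9, had the largest rise of any listed gene (Entrez 16199, chromosome 11, 32187544 to 32205283), from 0.196, 0.946 and 0.492 in TrB_WT to 14.9, 16.2 and 18.04 in eMZB_WT (log2 change 3.52, SE 0.16, adjusted p = 4.0e-08). The TrB_WT level of Il9r was near 0, with 15 reads per library on average against 846 in eMZB_WT. Fcrl5, an Fc receptor-like protein of marginal zone and innate-like B cells, had 2.25, 2.37 and 3.94 in TrB_WT and 27.3, 25.8 and 28.2 in eMZB_WT (log2 change 2.89, SE 0.16, adjusted p = 1.8e-07), and no library crossed over. S1pr3, a sphingosine 1-phosphate receptor that marginal zone B cells express, had 5.07, 6.66 and 6.06 in TrB_WT and 18.9, 16.8 and 20.9 in eMZB_WT (log2 change 1.52, SE 0.19, adjusted p = 8.7e-05). Cd9, a tetraspanin found on marginal zone B cells, rose from 3.98, 4.16 and 4.19 in TrB_WT to 10.4, 9.72 and 13.4 in eMZB_WT (log2 change 1.24, SE 0.18, adjusted p = 2.9e-04). Mzb1, an endoplasmic reticulum chaperone of marginal zone B and B1 cells, was high throughout, with 64.5, 59.1 and 69.6 in TrB_WT and 124, 125 and 117 in eMZB_WT (log2 change 0.92, SE 0.090, adjusted p = 1.3e-05). The exception was Cd55, which encodes decay-accelerating factor, a complement regulator. It fell from 30.1, 33.3 and 37.7 in TrB_WT to 13.5, 12.9 and 15.6 in eMZB_WT (log2 change -1.21, SE 0.13, adjusted p = 2.2e-05), with no overlap. As deposited its change was -0.37 and not called (adjusted p = 0.487), and 12 of the 16 genes rose and 0 fell. S1pr1, the receptor for exit towards sphingosine 1-phosphate, was uncalled, with 49.9, 53.5 and 62.7 in TrB_WT and 64.4, 57.9 and 68.1 in eMZB_WT (log2 change 0.20, SE 0.10, adjusted p = 0.174).

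Genes of transitional and immature B cells fell together, all 7 listed members of them, 6 by at least 2-fold, with a median log2 change of -1.33. The 7 and the 6 include Cd93, whose product was used in the TrB_WT gate, so its fall describes the sort as well. All 7 fell again without both replicate 3 libraries. As deposited all 7 kept a negative sign and 3 of them were called lower. The list names 12 genes, and the others are not among the listed genes. Rag1 lay under 1 scaled FPKM in every eMZB_WT library, so it was listed through other libraries and its fall is not separate support. Vpreb3, which binds immunoglobulin chains in early B cells, had 221, 255 and 276 in TrB_WT and 71.3, 58.4 and 67.7 in eMZB_WT (log2 change -1.91, SE 0.10, adjusted p = 1.8e-07). Cd24a, the heat-stable antigen that is high on immature B cells, had 186, 183 and 232 in TrB_WT and 62.5, 75.1 and 72.8 in eMZB_WT (log2 change -1.497, SE 0.10, adjusted p = 7.0e-07). In both, the highest eMZB_WT library lay below the lowest TrB_WT library. Rag1, a subunit of the recombinase that joins immunoglobulin gene segments, had 2.005, 1.49 and 2.04 in TrB_WT and 0.141, 0.202 and 0.0353 in eMZB_WT (log2 change -1.33, SE 0.17, adjusted p = 1.1e-04). Myb and Sox4, transcription factors of early lymphoid cells, fell with log2 changes of -1.04 (adjusted p = 7.9e-04) and -1.16 (adjusted p = 0.0041), and Lef1, a WNT-pathway factor of progenitors, with -0.84 (adjusted p = 5.8e-04). Rag1, Sox4, Myb and Lef1 were low, at 1.84, 4.18, 5.97 and 1.71 scaled FPKM on average in TrB_WT. The receptor genes were low too, and their medians were lower in eMZB_WT after scaling. With the median of the receptor genes subtracted from each deposited library before scaling, an alternative chosen after the data were seen, 4 of the 7 fell. In TrB_KO replicate 3 that median was 0, so nothing was subtracted there. This library still entered the factors and the shared spread, and its part in calls lost in this setting was not tested. Values under 0 after the subtraction were set to 0, so a change of exactly 0 does not measure a lack of change. Rag1 and Lef1 had such a change of 0 in this setting, and Sox4 had one of -1.25 that was not called (adjusted p = 0.099).

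**Figure D2:**
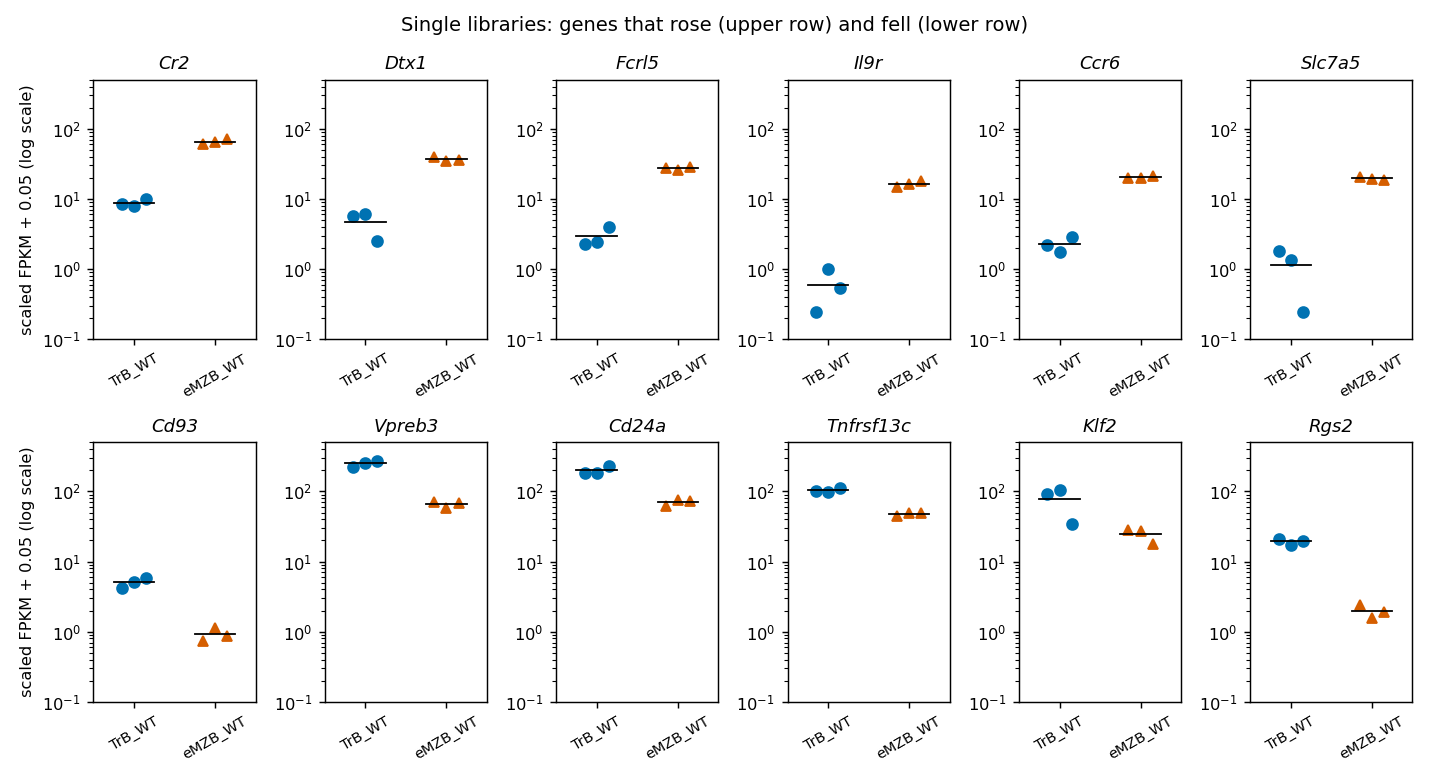
Scaled FPKM (vertical axis, log scale, with 0.05 added) in each of the 6 wild-type libraries for 12 genes, 1 panel per gene. Points are single libraries, circles for TrB_WT and triangles for eMZB_WT, short bars are group means, and the upper row holds genes that rose and the lower row genes that fell, with no overlap between the groups in any panel.

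Most listed targets of the Notch pathway rose, while calls among its receptors and modifiers were near the background. Of 5 listed targets 4 rose, 2 by at least 2-fold, and all 4 did so again without both replicate 3 libraries. All 4 were also called higher as deposited, a scale that moves changes upward. The list names 10 targets, and the others are not among the listed genes. Dtx4 lay under 1 scaled FPKM in every TrB_WT library, so it was listed through other libraries and its rise is not separate support. One of the 4 that rose, and of the 2 that did so by at least 2-fold, is Cr2, whose product CD21 was used in the eMZB gate. Dtx1 encodes a Deltex ubiquitin ligase and is a Notch target in B cells (Entrez 14357, chromosome 5, 120680203 to 120711867). It had 5.67, 5.96 and 2.46 in TrB_WT and 39.9, 35.1 and 35.99 in eMZB_WT, a mean 7.87-fold higher (log2 change 2.80, SE 0.23, adjusted p = 2.9e-06). Its relative Dtx4 had 0.586, 0.627 and 0.358 in TrB_WT and 1.92, 1.72 and 1.63 in eMZB_WT (log2 change 0.86, SE 0.15, adjusted p = 0.0012). Hes5, a repressor of the HES family, had 1.91, 1.59 and 1.20 in TrB_WT and 3.39, 3.17 and 2.86 in eMZB_WT (log2 change 0.70, SE 0.13, adjusted p = 0.0019). Dtx1 was low in all 3 TrB_WT libraries and high in all 3 eMZB_WT libraries, and Hes5 was low in both groups. Hes1, a Notch target in many tissues, was not called and overlapped, with 9.47, 12.4 and 6.69 in TrB_WT and 8.28, 7.98 and 5.73 in eMZB_WT (log2 change -0.31, SE 0.19, adjusted p = 0.235), but was called lower without TrB_WT replicate 3 (log2 change -0.52, adjusted p = 0.037). Among 22 listed receptors, modifiers and cofactors 3 rose, 2 fell and 17 were not called, shares near those of all genes. Without both replicate 3 libraries 1 of the 22 rose and 1 fell. Notch2 itself had 10.5, 9.004 and 11.3 in TrB_WT and 13.8, 13.1 and 14.9 in eMZB_WT (log2 change 0.40, SE 0.18, adjusted p = 0.124). Its groups did not overlap, and it was called higher in the fit of the 6 wild-type libraries alone (adjusted p = 0.027), with factors from those libraries (adjusted p = 0.023) and without TrB_KO replicate 3 (adjusted p = 0.033). Rbpj had 2.54, 2.52 and 2.99 in TrB_WT and 2.10, 2.36 and 2.87 in eMZB_WT (log2 change -0.10, SE 0.13, adjusted p = 0.595). Lfng, the Fringe glycosyltransferase that tunes NOTCH2 towards Delta-like ligands, rose from 1.49, 1.36 and 0.906 in TrB_WT to 2.12, 2.42 and 2.27 in eMZB_WT (log2 change 0.55, SE 0.18, adjusted p = 0.036), but was not called without TrB_WT replicate 2 or 3 or without any single eMZB_WT replicate, with adjusted p of 0.055 to 0.113.

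The promoters of 2 of the 3 listed targets with an entry in the RefSeq table (GRCm38.p6) hold TGGGAA, the core letters bound by RBPJ, in the 250 bases before the start, on either strand. They are shown because Notch signalling was supplied in the culture, with the matched letters in capitals.
Hes5, chr4:154960673-154960738, + strand: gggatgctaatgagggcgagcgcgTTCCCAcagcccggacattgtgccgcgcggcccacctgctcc
Hes5, chr4:154960805-154960882, + strand: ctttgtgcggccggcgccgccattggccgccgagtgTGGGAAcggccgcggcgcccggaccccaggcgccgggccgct
Cr2, chr1:195176898-195176969, - strand: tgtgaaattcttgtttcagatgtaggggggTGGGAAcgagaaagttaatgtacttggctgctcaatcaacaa
The matches begin 226 and 82 bases before the start of Hes5 and 220 bases before the start that the promoter table gives for Cr2. That start lies inside the gene span printed above, whose outer end is 59 bases from the match, and the start given for Hes5 also lies inside its span, so that both of its matches do. Dtx1, which rose most, had no match in this window. TGGGAA stands in 22.97% of the 7831 listed genes with a promoter entry, so the match is a description of the letters and not of a bound site.

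Relative to the median gene, the receptor for BAFF was lower. Tnfrsf13c, which encodes the BAFF receptor, fell from 100.3, 97.5 and 114 in TrB_WT to 45.2, 48.8 and 48.6 in eMZB_WT, a mean 2.18-fold lower (log2 change -1.11, SE 0.077, adjusted p = 8.4e-07). All eMZB_WT libraries lay below the TrB_WT libraries for it, but as deposited the change was -0.25 and not called (adjusted p = 0.617). Nfkb2, which encodes the p100 precursor that BAFF signalling converts to p52, rose from 21.6, 22.3 and 16.7 in TrB_WT to 28.4, 28.2 and 32.5 in eMZB_WT (log2 change 0.54, SE 0.13, adjusted p = 0.0081), though it was not called without both replicate 3 libraries (log2 change 0.35, adjusted p = 0.083) or with the receptor-gene level subtracted (0.35, adjusted p = 0.052). Of the 10 listed genes of BAFF receptors and noncanonical NF-kB 3 rose and 2 fell, but without both replicate 3 libraries 1 rose and 2 fell, and as deposited 3 rose and 0 fell. Of 13 canonical NF-kB genes 1 rose and 1 fell, near the background. Traf1, an adaptor of TNF receptors whose gene responds to NF-kB, was among the largest rises, from 0.488, 0.847 and 0.511 in TrB_WT to 7.58, 7.40 and 8.95 in eMZB_WT (log2 change 2.48, SE 0.13, adjusted p = 1.8e-07).

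In the BCL2 family, which decides between survival and death, 6 of 12 listed genes rose, 4 by at least 2-fold, and 1 fell, and without both replicate 3 libraries 6 rose and 2 fell. Bcl2a1b, a survival protein of the A1 group, had 4.45, 5.43 and 6.90 in TrB_WT and 31.4, 30.7 and 26.8 in eMZB_WT (log2 change 2.23, SE 0.18, adjusted p = 3.0e-06), and Bcl2a1d 4.12, 3.30 and 4.70 in TrB_WT and 20.8, 17.4 and 17.4 in eMZB_WT (log2 change 1.96, SE 0.22, adjusted p = 3.1e-05). These 2 genes are near-identical copies, so the split of reads between them is uncertain. Bcl2, another survival protein, rose from 4.10, 3.78 and 3.37 in TrB_WT to 7.09, 6.68 and 6.90 in eMZB_WT (log2 change 0.74, SE 0.11, adjusted p = 4.6e-04). The death-promoting members went both ways, since Bbc3 (PUMA) rose with 0.246, 0.256 and 0 in TrB_WT and 1.87, 2.05 and 1.75 in eMZB_WT (log2 change 1.31, SE 0.20, adjusted p = 3.8e-04) and Bid with 8.48, 6.85 and 12.7 in TrB_WT and 22.8, 21.8 and 24.5 in eMZB_WT (log2 change 1.25, SE 0.17, adjusted p = 1.6e-04), while Bmf fell from 3.45, 3.69 and 2.82 in TrB_WT to 0.636, 0.475 and 0.528 in eMZB_WT (log2 change -1.48, SE 0.20, adjusted p = 1.9e-04), though it was not called with the receptor-gene level subtracted (log2 change -1.23, adjusted p = 0.062). None of these overlapped between the groups.

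Transcription factors of B cell identity were lower relative to the median gene. Of 23 listed factors 10 fell, 4 by at least 2-fold, 2 rose and 11 were not called, with a median log2 change of -0.32, while as deposited 0 fell and 1 rose. Klf2, a quiescence and homing factor, had 92.3, 105 and 33.9 in TrB_WT and 28.3, 27.7 and 17.9 in eMZB_WT (log2 change -1.48, SE 0.33, adjusted p = 0.0052). Spib, an ETS factor of the B lineage, had 224, 213 and 253 in TrB_WT and 81.2, 90.4 and 92.5 in eMZB_WT (log2 change -1.37, SE 0.13, adjusted p = 1.0e-05). Tcf3, which encodes E2A, had 59.04, 56.6 and 31.9 in TrB_WT and 21.6, 21.2 and 21.4 in eMZB_WT (log2 change -1.11, SE 0.19, adjusted p = 9.5e-04). Bach2, a repressor of plasma cell genes, fell from 14.8, 16.3 and 9.83 in TrB_WT to 7.05, 6.19 and 5.22 in eMZB_WT (log2 change -1.01, SE 0.18, adjusted p = 0.0011). These 4 were below every TrB_WT library in every eMZB_WT library, and as deposited they stayed negative but were not called. Ebf1 and Pax5, which maintain the lineage, fell by smaller amounts, with log2 changes of -0.66 and -0.82 (adjusted p = 2.9e-04 and 0.0026), and both turned positive as deposited.

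Genes of the B cell receptor complex and its signalling moved both ways. Of 27 listed genes 6 rose, 10 fell and 11 were not called, with a median log2 change of 0.055, but as deposited 5 rose and 0 fell, and with the receptor-gene level subtracted 3 rose and 11 fell. Cd79a and Cd79b, the signalling chains of the receptor, had 796, 835 and 941 in TrB_WT and 468, 496 and 415 in eMZB_WT (log2 change -0.90, SE 0.10, adjusted p = 4.0e-05) and 766, 792 and 872 in TrB_WT and 413, 450.1 and 400.4 in eMZB_WT (log2 change -0.94, SE 0.094, adjusted p = 1.4e-05). Both were abundant in every library, and as deposited their changes were -0.028 and -0.071. With the receptor-gene level subtracted their changes were -1.20 and -1.25, larger but not called (adjusted p = 0.098 and 0.075). That level was 0 in TrB_KO replicate 3, which shares the spread of this fit, and its part in the lost calls was not tested. Cd81, a tetraspanin in the complex that holds CD21, rose from 37.4, 35.1 and 36.8 in TrB_WT to 66.03, 67.8 and 67.5 in eMZB_WT (log2 change 0.86, SE 0.080, adjusted p = 8.1e-06). Fyn, a SRC family kinase, rose from 2.80, 2.36 and 1.39 in TrB_WT to 6.01, 5.48 and 4.88 in eMZB_WT (log2 change 1.04, SE 0.20, adjusted p = 0.0025). Ms4a1 (CD20) fell relative to the median gene, by 0.60 on the log2 scale (adjusted p = 2.5e-04), and turned positive as deposited. Of the 6 B cell markers, all listed, 5 fell and 0 rose, while as deposited 0 fell, and their summed level was 2025 to 2350 scaled FPKM in TrB_WT and 1160 to 1289 in eMZB_WT.

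Of 13 genes of MHC class II and costimulation 7 rose, 1 by at least 2-fold, and 1 fell, and without both replicate 3 libraries 7 rose and 1 fell, but with the receptor-gene level subtracted 1 rose and 1 fell. Icosl, the ligand of ICOS on T cells, had 6.43, 5.88 and 5.92 in TrB_WT and 18.01, 19.6 and 21.8 in eMZB_WT (log2 change 1.55, SE 0.088, adjusted p = 2.2e-07). H2-Aa and H2-Eb1, class II chains that present peptides to helper T cells, had 262, 264 and 305 in TrB_WT and 531, 599.8 and 484 in eMZB_WT (log2 change 0.95, SE 0.093, adjusted p = 1.2e-05) and 140.1, 146 and 149 in TrB_WT and 287, 272 and 259.6 in eMZB_WT (log2 change 0.91, SE 0.068, adjusted p = 1.4e-06). For both class II genes every eMZB_WT library lay above every TrB_WT library, and with the receptor-gene level subtracted neither was called (log2 changes 0.66 and 0.62, adjusted p = 0.184 and 0.052). Of 14 genes of class I presentation 3 rose and 1 fell, and with the receptor-gene level subtracted 1 rose and 2 fell.

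Genes of the amino acid response, amino acid synthesis and the one-carbon cycle rose almost without exception. Of 21 listed members 20 rose, 12 by at least 2-fold, and 1 fell, with a median log2 change of 1.60, and 19 rose without both replicate 3 libraries. Slc7a5, the large-neutral amino acid transporter (Entrez 20539, chromosome 8, 121881146 to 121907686), had 1.78, 1.31 and 0.195 in TrB_WT and 20.4, 19.3 and 18.8 in eMZB_WT, a mean 17.8-fold higher (log2 change 3.38, SE 0.26, adjusted p = 1.5e-06). Asns, asparagine synthetase (Entrez 27053, chromosome 6, 7675165 to 7693209), had 0.757, 0.893 and 1.44 in TrB_WT and 11.6, 8.04 and 12.1 in eMZB_WT (log2 change 2.51, SE 0.27, adjusted p = 2.8e-05). Mthfd2, a mitochondrial enzyme of the folate cycle, had 2.11, 2.10 and 2.08 in TrB_WT and 13.6, 16.8 and 19.7 in eMZB_WT (log2 change 2.50, SE 0.17, adjusted p = 9.2e-07). All 3 were low in each TrB_WT library and several times higher in each eMZB_WT library. The serine pathway rose along its length, with log2 changes of 1.61 for Phgdh, 1.69 for Psat1 and 1.80 for Shmt2, which turns serine into glycine in mitochondria. Proline synthesis rose too, with 1.64 for Aldh18a1 and 1.60 for Pycr1. Among the stress regulators Trib3, a pseudokinase induced by ATF4, had 0.0593, 0.197 and 0.270 in TrB_WT and 5.03, 3.42 and 4.82 in eMZB_WT (log2 change 2.20, SE 0.15, adjusted p = 9.2e-07). Sesn2, which senses leucine, had 0.641, 0.610 and 0.836 in TrB_WT and 7.68, 5.73 and 6.42 in eMZB_WT (log2 change 2.16, SE 0.14, adjusted p = 5.8e-07). Chac1, which degrades glutathione, had 0.0774, 0.773 and 0.265 in TrB_WT and 2.95, 3.003 and 4.34 in eMZB_WT (log2 change 1.71, SE 0.22, adjusted p = 1.2e-04). Atf4, the transcription factor of this response, rose by less, from 19.96, 20.3 and 24.5 in TrB_WT to 35.2, 30.5 and 35.005 in eMZB_WT (log2 change 0.62, SE 0.10, adjusted p = 7.1e-04). Slc1a5, a glutamine transporter, was the member that fell, from 64.3, 72.2 and 41.8 in TrB_WT to 39.5, 34.7 and 35.2 in eMZB_WT (log2 change -0.65, SE 0.16, adjusted p = 0.0088), and it turned positive as deposited.

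Enzymes that charge transfer RNA rose in the same direction. Of 22 listed cytosolic and mitochondrial synthetases 15 rose, 9 by at least 2-fold, and 0 fell, with a median log2 change of 0.74, and 14 rose and 1 fell without both replicate 3 libraries. Aars, for alanine, had 6.09, 5.80 and 5.002 in TrB_WT and 25.6, 22.99 and 28.3 in eMZB_WT (log2 change 2.004, SE 0.13, adjusted p = 4.4e-07). Cars, for cysteine, had 4.83, 4.99 and 5.25 in TrB_WT and 18.3, 16.5 and 17.8 in eMZB_WT (log2 change 1.62, SE 0.13, adjusted p = 3.0e-06). Tars, for threonine, had 8.30, 8.79 and 8.84 in TrB_WT and 19.8, 19.4 and 20.7 in eMZB_WT (log2 change 1.12, SE 0.12, adjusted p = 2.5e-05). No library of one group entered the range of the other for these 3. The other 6 with at least 2-fold, Sars, Mars1, Iars, Yars, Gars and Nars, had log2 changes of 1.30 (Sars) to 1.42 (Iars).

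Because members of both lists rose together, their promoters were searched for TGATGNAA, the letters of the CARE element bound by ATF4 with a C/EBP partner, in the 250 bases before the start and on either strand. The letters stand in 3 of 19 genes of the amino acid list and 3 of 15 synthetases with a promoter entry in RefSeq (GRCm38.p6), and in 2.54% of the 7831 listed genes with one. The 6 windows are shown with the match in capitals, and none of the matches overlaps a TGGGAA match.
Asns, chr6:7693210-7693268, - strand: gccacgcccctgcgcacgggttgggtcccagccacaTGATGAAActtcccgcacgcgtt
Chac1, chr2:119351013-119351092, + strand: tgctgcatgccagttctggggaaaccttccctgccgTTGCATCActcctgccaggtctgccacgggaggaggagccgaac
Pycr1, chr11:120643808-120643887, - strand: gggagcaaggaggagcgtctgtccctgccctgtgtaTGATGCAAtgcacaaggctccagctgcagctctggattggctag
Aars, chr8:111033694-111033773, + strand: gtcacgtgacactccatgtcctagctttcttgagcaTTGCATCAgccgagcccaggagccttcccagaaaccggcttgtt
Gars, chr6:55037935-55038000, + strand: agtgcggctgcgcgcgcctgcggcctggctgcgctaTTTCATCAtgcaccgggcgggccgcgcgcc
Tars, chr15:11399659-11399709, - strand: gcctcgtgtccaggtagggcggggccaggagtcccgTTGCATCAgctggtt
The matches begin 23 bases before the start of Asns, 193 of Chac1, 103 of Pycr1, 112 of Aars, 30 of Gars and 15 of Tars. In Asns and Pycr1 the letters read TGATGAAA and TGATGCAA on the gene's strand, and in the other 4 the reverse complement is printed. The start given for Aars lies inside its gene span. A match describes letters and not binding, and Slc7a5 has no promoter entry. The amino acid list was chosen as genes of a response whose factor is ATF4. Its share of matches can follow from that choice and says nothing about these cells.

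**Figure D3:**
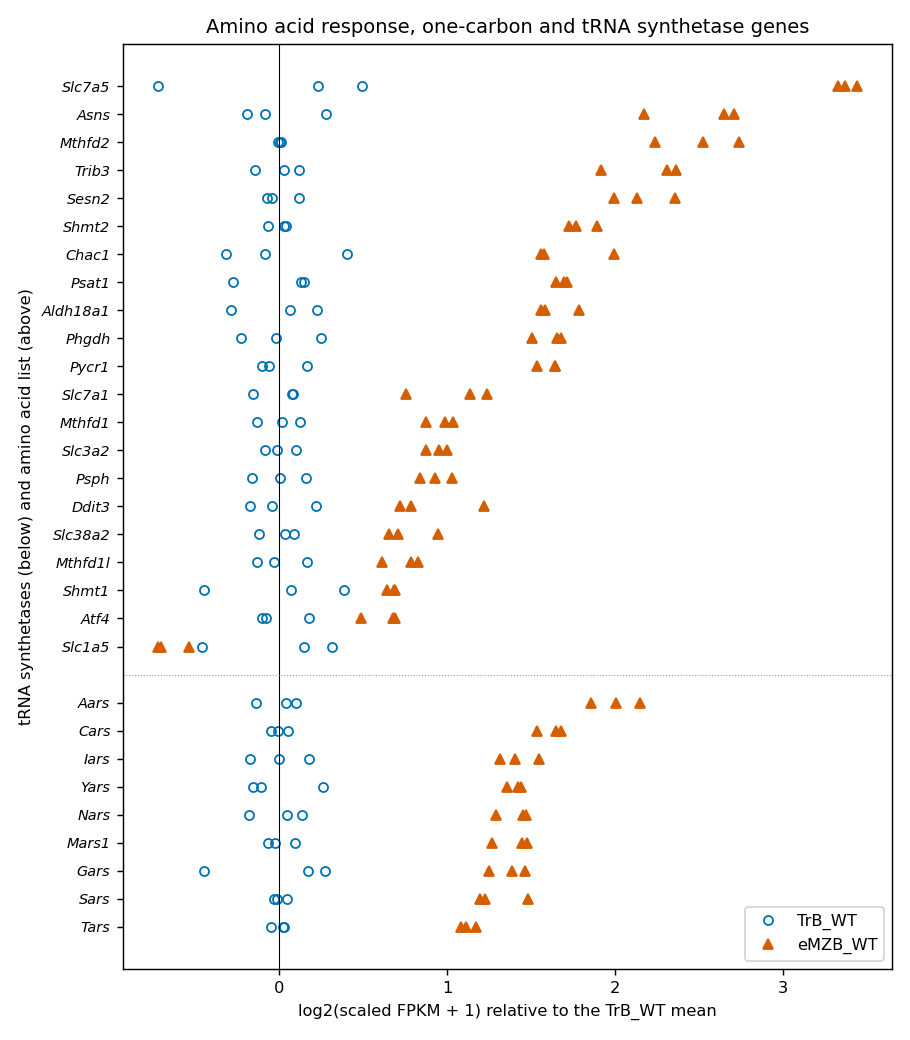
Log2(scaled FPKM + 1) relative to the TrB_WT mean (horizontal axis) in each of the 6 wild-type libraries for the listed genes of the amino acid list and for the tRNA synthetases with a rise of at least 2-fold, 1 row per gene. Open circles are TrB_WT libraries and filled triangles eMZB_WT libraries, and the eMZB_WT libraries lie to the right for all genes but Slc1a5.

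Growth and protein synthesis genes rose more often than the background. Of 36 genes of MYC and ribosome biogenesis 19 rose, 3 by at least 2-fold, and 0 fell, and 12 rose without both replicate 3 libraries. Myc itself had 5.38, 6.31 and 5.47 in TrB_WT and 15.7, 16.1 and 17.8 in eMZB_WT (log2 change 1.38, SE 0.099, adjusted p = 1.1e-06). Srm, which makes spermidine, and Odc1, which starts polyamine synthesis, had log2 changes of 1.29 (adjusted p = 1.0e-03) and 1.19 (adjusted p = 9.8e-04), and Npm1, a nucleolar chaperone, 0.98 (adjusted p = 2.4e-05). Of 84 cytosolic ribosomal protein genes 69 rose and 0 fell, with changes of 0.18 to 1.06 on the log2 scale, but 46 rose without both replicate 3 libraries and 4 with the receptor-gene level subtracted. Rpl13 had 148, 151 and 128 in TrB_WT and 304, 308 and 281 in eMZB_WT (log2 change 1.06, SE 0.13, adjusted p = 5.9e-05), and an adjusted p of 0.077 with the receptor-gene level subtracted. Many ribosomal protein genes have processed copies elsewhere in the genome, and how the counting treated them is not given in the sources used here. Of 77 mitochondrial ribosomal protein genes 8 rose and 1 fell, and of 78 oxidative phosphorylation subunits 12 rose and 0 fell, both near or under the background of 14.6%. These counts were 3 and 0, and 8 and 0, without both replicate 3 libraries, and of the oxidative phosphorylation subunits 0 rose and 2 fell with the receptor-gene level subtracted.

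Chaperones followed. Of 8 subunits of the TRiC chaperonin, which folds actin and tubulin, 7 rose, with Cct4 at 12.1, 12.7 and 16.4 in TrB_WT and 23.5, 24.2 and 23.9 in eMZB_WT (log2 change 0.77, SE 0.10, adjusted p = 1.8e-04), and 3 rose with the receptor-gene level subtracted. Of 16 heat shock chaperones 11 rose and 0 fell, and 6 rose with the receptor-gene level subtracted, led by Hspa8, the constitutive HSP70, with 41.2, 37.2 and 44.97 in TrB_WT and 106, 103 and 99.2 in eMZB_WT (log2 change 1.30, SE 0.076, adjusted p = 2.5e-07). Its mitochondrial relative Hspa9 had a log2 change of 1.08 (adjusted p = 1.5e-05). Of 47 genes of folding and secretion in the endoplasmic reticulum 20 rose and 2 fell, but 12 rose and 1 fell without both replicate 3 libraries, and 10 rose and 2 fell with the receptor-gene level subtracted. Pdia4, a disulfide isomerase, rose most, from 27.5, 28.7 and 37.6 in TrB_WT to 108, 122 and 128 in eMZB_WT (log2 change 1.91, SE 0.14, adjusted p = 1.1e-06). Hspa5, the chaperone BiP, had 48.2, 48.4 and 51.8 in TrB_WT and 68.9, 84.4 and 80.2 in eMZB_WT (log2 change 0.64, SE 0.11, adjusted p = 9.3e-04), and its libraries were apart, but it was not called with the receptor-gene level subtracted (log2 change 0.38, adjusted p = 0.079). Of 10 plasma cell genes 4 rose and 0 fell, and Prdm1, which encodes BLIMP1, was at 0.531, 0.644 and 0.707 in TrB_WT and 1.45, 1.47 and 1.78 in eMZB_WT (log2 change 0.66, SE 0.13, adjusted p = 0.0032), a change not called with the receptor-gene level subtracted (log2 change 0.53, adjusted p = 0.084). Xbp1, a factor of secretory cells, was at 17.96, 18.2 and 14.01 in TrB_WT and 29.2, 21.7 and 26.9 in eMZB_WT (log2 change 0.60, SE 0.14, adjusted p = 0.0060), and without both replicate 3 libraries it was not called (adjusted p = 0.060).

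Of 19 glycolytic genes 13 rose and 0 fell, and 12 rose without both replicate 3 libraries. Aldoa, an aldolase, had 37.5, 42.3 and 41.1 in TrB_WT and 94.3, 101 and 94.9 in eMZB_WT (log2 change 1.25, SE 0.079, adjusted p = 4.2e-07). Ldha, lactate dehydrogenase A, had 41.8, 39.5 and 44.3 in TrB_WT and 78.7, 90.5 and 84.6 in eMZB_WT (log2 change 0.997, SE 0.12, adjusted p = 5.5e-05). All glycolytic genes had a positive change, from 0.15 to 1.25 on the log2 scale. In cholesterol synthesis 10 of 25 genes rose and 0 fell, with Sqle, squalene epoxidase, at 2.12, 1.73 and 1.41 in TrB_WT and 4.42, 4.9998 and 6.09 in eMZB_WT (log2 change 1.16, SE 0.19, adjusted p = 8.4e-04). In the short list of sterol export and LXR targets 1 gene rose and 3 fell, but as deposited 1 rose and 0 fell. Apoe, the lipoprotein that carries cholesterol, rose from 10.7, 3.19 and 3.76 in TrB_WT to 53.8, 50.6 and 41.6 in eMZB_WT (log2 change 3.01, SE 0.31, adjusted p = 1.8e-05), while Abca1, a cholesterol pump, fell from 4.04, 4.42 and 3.83 in TrB_WT to 2.22, 1.75 and 2.13 in eMZB_WT (log2 change -0.75, SE 0.12, adjusted p = 6.5e-04). As deposited the change of Abca1 was -0.099 and not called (adjusted p = 0.821).

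Mitotic genes rose in number. Of 33 listed, 27 rose, 7 by at least 2-fold, and 0 fell, with a median log2 change of 0.74, but 13 rose and 0 fell without both replicate 3 libraries. Ccna2, cyclin A, had 2.16, 2.56 and 1.09 in TrB_WT and 9.04, 6.90 and 8.85 in eMZB_WT (log2 change 1.69, SE 0.19, adjusted p = 3.5e-05). Top2a, the topoisomerase of dividing cells, had 3.52, 3.54 and 1.64 in TrB_WT and 9.38, 8.61 and 9.81 in eMZB_WT (log2 change 1.44, SE 0.19, adjusted p = 1.5e-04). Plk1, a mitotic kinase, had 0.979, 1.37 and 0.294 in TrB_WT and 4.16, 3.65 and 4.84 in eMZB_WT (log2 change 1.51, SE 0.20, adjusted p = 1.5e-04). In each the TrB_WT levels were above 0 and the eMZB_WT levels higher in all 3 libraries. Of 46 DNA replication genes 22 rose, 3 by at least 2-fold, and 2 fell, with 20 and 1 without both replicate 3 libraries, and Rrm2, the ribonucleotide reductase subunit made in S phase, had 3.74, 5.76 and 4.58 in TrB_WT and 16.6, 14.7 and 15.6 in eMZB_WT (log2 change 1.56, SE 0.12, adjusted p = 2.4e-06). Mcm6, of the replicative helicase, had 4.09, 5.35 and 5.94 in TrB_WT and 12.1, 12.4 and 12.9 in eMZB_WT (log2 change 1.15, SE 0.13, adjusted p = 4.1e-05). Among G1 regulators E2f2, a DNA-binding E2F factor, fell from 13.1, 12.7 and 11.6 in TrB_WT to 4.14, 3.88 and 4.35 in eMZB_WT (log2 change -1.40, SE 0.12, adjusted p = 3.9e-06), and Tfdp1, an E2F partner, rose from 2.98, 3.93 and 2.23 in TrB_WT to 7.71, 11.7 and 7.48 in eMZB_WT (log2 change 1.30, SE 0.18, adjusted p = 2.3e-04). As deposited the change of E2f2 was -0.62 and not called (adjusted p = 0.229).

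Genes of quiescence were lower relative to the median gene. Of 16 listed 7 fell, 4 by at least 2-fold, and 2 rose, while without both replicate 3 libraries 8 fell and 1 rose, and as deposited 0 fell and 3 rose. Tsc22d3, the glucocorticoid-induced leucine zipper protein, had 21.97, 23.7 and 27.5 in TrB_WT and 5.51, 5.88 and 5.65 in eMZB_WT (log2 change -1.92, SE 0.11, adjusted p = 1.8e-07). Txnip, which restrains glucose uptake, had 70.2, 72.1 and 88.2 in TrB_WT and 31.2, 33.95 and 35.7 in eMZB_WT (log2 change -1.16, SE 0.099, adjusted p = 4.1e-06). Cdkn2d, a CDK4 and CDK6 inhibitor, had 16.8, 22.1 and 20.9 in TrB_WT and 7.95, 8.86 and 9.16 in eMZB_WT (log2 change -1.11, SE 0.14, adjusted p = 7.4e-05). No library crossed between the groups for these 3, and as deposited their signs stayed negative but none was called.

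**Figure D4:**
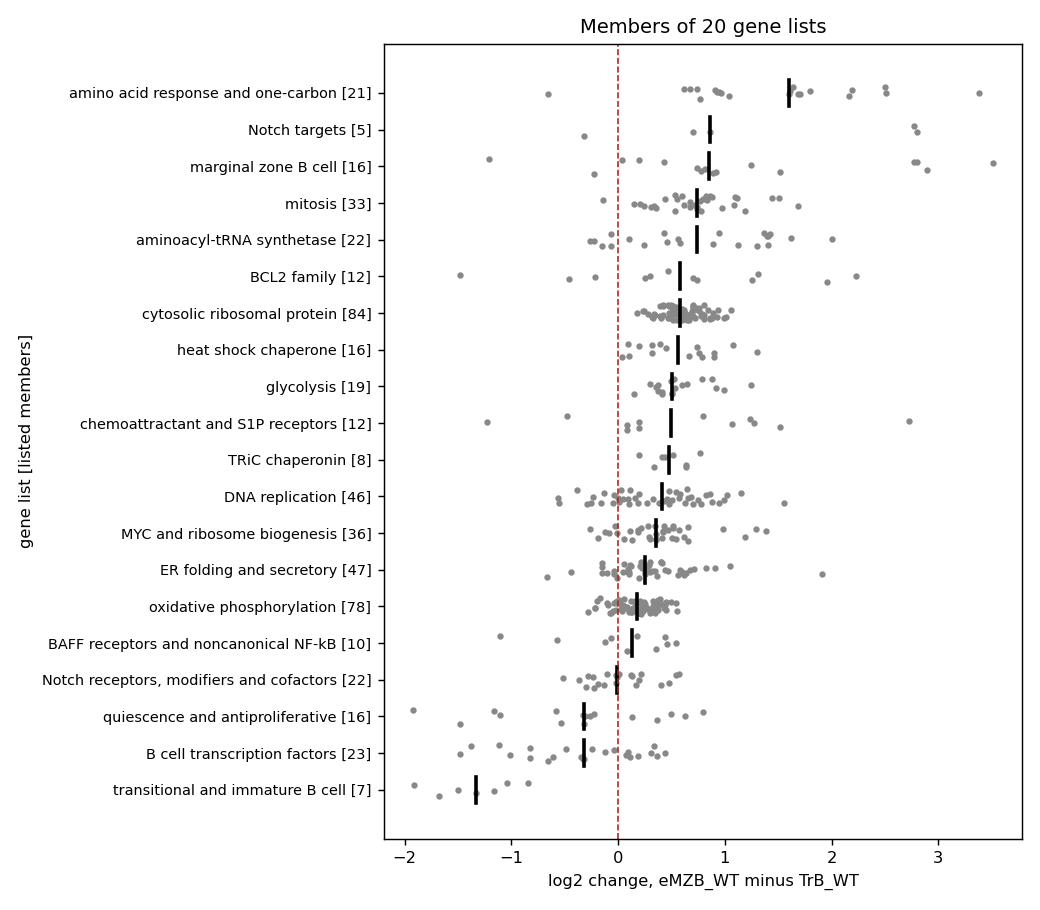
Log2 change from TrB_WT to eMZB_WT (horizontal axis) of each listed member (grey points) in 20 gene lists, 1 row per list, with the list's median as a black bar and the median of all genes as a dashed line near 0. Numbers in brackets are listed members, and the lists run from the highest median, 1.60 for the amino acid list, to the lowest, -1.33 for transitional and immature B cell genes.

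Receptors that guide B cells in the spleen changed as well. Of 12 listed chemoattractant and sphingosine phosphate receptors 6 rose, 5 by at least 2-fold, and 2 fell, and without both replicate 3 libraries 6 rose and 1 fell. Ccr6, the receptor for CCL20 (Entrez 12458, chromosome 17, 8236041 to 8258519), had 2.16, 1.70 and 2.80 in TrB_WT and 19.8, 19.5 and 21.1 in eMZB_WT, a mean 9.06-fold higher (log2 change 2.73, SE 0.16, adjusted p = 2.2e-07). Gpr183 (EBI2), which follows oxysterols, had 5.91, 6.19 and 6.27 in TrB_WT and 12.2, 15.98 and 13.9 in eMZB_WT (log2 change 1.07, SE 0.098, adjusted p = 7.5e-06). Ackr3, a scavenger of CXCL12 found on marginal zone B cells, had 0.734, 0.611 and 0.777 in TrB_WT and 3.43, 2.61 and 3.09 in eMZB_WT (log2 change 1.24, SE 0.13, adjusted p = 2.8e-05). Cxcr5, the follicle-homing receptor, rose from 24.4, 26.8 and 30.1 in TrB_WT to 47.5, 45.6 and 50.003 in eMZB_WT (log2 change 0.80, SE 0.10, adjusted p = 1.3e-04). S1pr4 went down, from 12.6, 13.4 and 14.3 in TrB_WT to 4.73, 5.18 and 5.49 in eMZB_WT (log2 change -1.23, SE 0.094, adjusted p = 1.5e-06). As deposited its change was -0.45 and not called (adjusted p = 0.377). None of the 5 overlapped between the groups. Of 17 adhesion genes 7 rose and 8 fell, but as deposited 6 rose and 0 fell.

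Of 13 genes that regulate G protein signalling 6 fell, 3 by at least 2-fold, and 2 rose, and without both replicate 3 libraries 6 fell and 2 rose. Rgs2 fell most, from 21.1, 17.4 and 19.7 in TrB_WT to 2.35, 1.52 and 1.86 in eMZB_WT (log2 change -2.81, SE 0.12, adjusted p = 3.3e-08), and Rgs10 rose from 0.678, 0.282 and 0.644 in TrB_WT to 3.61, 2.50 and 3.21 in eMZB_WT (log2 change 1.42, SE 0.21, adjusted p = 4.0e-04). Both encode proteins that speed GTP hydrolysis by G protein alpha subunits. Gimap4, a lymphocyte GTPase, rose from 5.30, 5.48 and 7.05 in TrB_WT to 20.7, 21.6 and 20.8 in eMZB_WT (log2 change 1.67, SE 0.12, adjusted p = 8.0e-07), among 8 GIMAP genes of which 3 rose and 1 fell. Fcrla, an intracellular Fc receptor-like protein of B cells, went against Fcrl5 and fell from 79.9, 82.4 and 95.6 in TrB_WT to 45.2, 40.2 and 42.04 in eMZB_WT (log2 change -0.996, SE 0.091, adjusted p = 7.2e-06). As deposited the change of Fcrla was -0.14 and not called (adjusted p = 0.785). Of the 8 Fc receptor and Fc receptor-like genes 4 rose and 1 fell.

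Of 19 genes of Toll-like receptors and their adaptors 6 rose and 2 fell, and without both replicate 3 libraries 7 rose and 1 fell. Tlr7, the endosomal sensor of single-stranded RNA, rose from 3.39, 2.44 and 3.73 in TrB_WT to 9.86, 10.3 and 10.5 in eMZB_WT (log2 change 1.43, SE 0.14, adjusted p = 1.0e-05). Of 43 interferon response genes 5 rose and 4 fell, under the background in both directions, though without both replicate 3 libraries 9 rose and 3 fell. Isg15, a ubiquitin-like protein, had 2.73, 2.54 and 3.12 in TrB_WT and 8.61, 8.91 and 7.57 in eMZB_WT (log2 change 1.30, SE 0.12, adjusted p = 9.6e-06), and Irf7 10.8, 7.40 and 12.4 in TrB_WT and 26.7, 30.2 and 18.9 in eMZB_WT (log2 change 1.23, SE 0.20, adjusted p = 6.5e-04). Of 15 immediate early genes 5 rose and 5 fell, but without both replicate 3 libraries 3 rose and 5 fell, and as deposited 5 rose and 0 fell. Egr1 fell from 17.5, 14.3 and 11.01 in TrB_WT to 5.05, 5.35 and 6.78 in eMZB_WT (log2 change -1.17, SE 0.21, adjusted p = 0.0014) and its relative Egr3 rose from 3.82, 4.27 and 3.08 in TrB_WT to 6.76, 6.72 and 7.05 in eMZB_WT (log2 change 0.74, SE 0.10, adjusted p = 2.4e-04). As deposited the change of Egr1 was -0.38 and not called (adjusted p = 0.468). Of 14 cathepsins and lysosomal proteases 5 rose and 2 fell, with Lgmn, legumain, at 13.2, 14.1 and 19.02 in TrB_WT and 49.8, 51.1 and 50.8 in eMZB_WT (log2 change 1.67, SE 0.13, adjusted p = 1.7e-06). Of 20 cytokine receptors 4 rose and 5 fell, but with the receptor-gene level subtracted 1 rose and 4 fell.

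Other large rises were in genes outside these lists or without partners in them. Ly6a, the surface protein Sca-1 (Entrez 110454, chromosome 15, 74994877 to 74998031), had 23.9, 22.3 and 36.8 in TrB_WT and 277, 334 and 241 in eMZB_WT (log2 change 3.33, SE 0.17, adjusted p = 9.7e-08). Plaur, the urokinase receptor, had 2.33, 1.07 and 2.92 in TrB_WT and 25.9, 26.6 and 27.6 in eMZB_WT (log2 change 3.21, SE 0.20, adjusted p = 3.6e-07). Socs3, a feedback inhibitor of cytokine signalling, had 0.312, 0.111 and 0.458 in TrB_WT and 5.44, 5.74 and 6.79 in eMZB_WT (log2 change 2.44, SE 0.19, adjusted p = 1.6e-06). Each was lower in every TrB_WT library than in any eMZB_WT library, and Ly6a was well above 0 in both groups.

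Cxcl12 and Igfbp4, also among the 15 largest rises, varied widely between the eMZB_WT libraries. Cxcl12, a chemokine best known from stromal cells, had 0.170, 0.297 and 0.213 in TrB_WT and 1.84, 7.07 and 15.2 in eMZB_WT (log2 change 2.55, SE 0.64, adjusted p = 0.010). Igfbp4, which binds insulin-like growth factors, had 0.0588, 0 and 0.134 in TrB_WT and 0.878, 4.82 and 12.3 in eMZB_WT (log2 change 2.31, SE 0.62, adjusted p = 0.015). Replicate 1 was low and replicate 3 high in both. Taking, after these values were seen, every gene under 1 scaled FPKM in all TrB_WT libraries and with a 5-fold range and a maximum of at least 5 in eMZB_WT gave 7 genes, these 2 with Bgn, Ccn5, Ifitm2, Il1rn and Myl9. Their summed level was 1.85, 2.06 and 1.99 in TrB_WT and 7.04, 22.8 and 64.7 in eMZB_WT. In the eMZB_KO libraries it was 10.7, 12.6 and 60.5, again highest in replicate 3. Without eMZB_WT replicate 3 the log2 change of Cxcl12 was 1.97 (adjusted p = 0.048) and that of Igfbp4 1.64 (adjusted p = 0.063). With voom on recovered reads the log2 changes were 4.71 for Cxcl12 and 5.99 for Igfbp4, larger but not called (adjusted p = 0.18 and 0.249). Markers of stroma (0 of 7), neutrophils (0 of 6), NK cells (0 of 5) and platelets (0 of 4) are not listed, of T cells 1 of 7 is (Lck, also expressed in B cells), of dendritic cells 1 of 6 (Flt3), of macrophages 3 of 10 and of erythroid cells 1 of 6. The summed macrophage markers Adgre1, Itgam and Cd68 were 5.05 to 6.55 scaled FPKM in TrB_WT and 2.48 to 3.36 in eMZB_WT, and the erythroid marker Hbb-bs 2.09 to 2.60 and 0.551 to 0.880. The part of other cells in the changes was not tested.

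**Figure D5:**
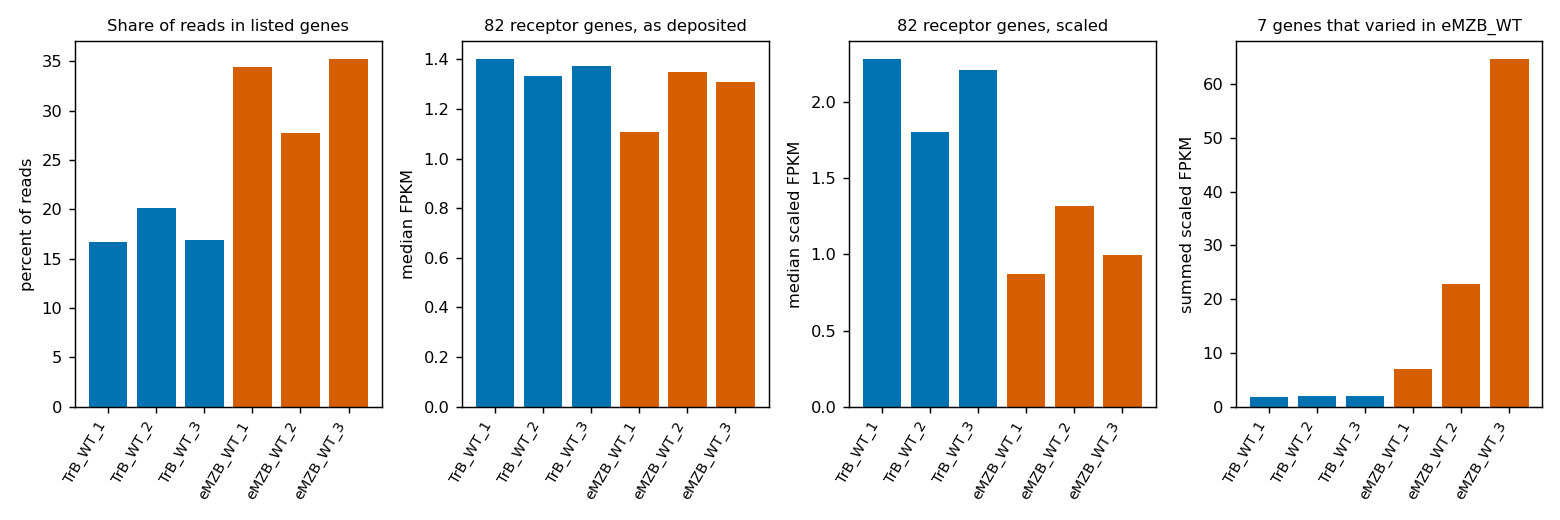
Values of the 6 wild-type libraries as bars from 0, TrB_WT in blue and eMZB_WT in orange, for the share of reads in listed genes (percent), the median of the 82 receptor genes in deposited and in scaled FPKM, and the summed scaled FPKM of the 7 genes that varied in eMZB_WT. The deposited receptor medians lie between 1.11 and 1.40 in both groups, the scaled ones are lower in eMZB_WT, and the summed level reaches 64.7 in eMZB_WT replicate 3.

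The largest falls were in genes of mixed function. Each kept its sign as deposited, as every fall of at least 2-fold did. Wfdc21, a small secreted protein with a WAP domain (Entrez 66107, chromosome 11, 83746940 to 83752646), had 25.8, 31.6 and 37.99 in TrB_WT and 0.286, 0 and 0.179 in eMZB_WT (log2 change -4.82, SE 0.28, adjusted p = 2.4e-07), from 117 reads per library on average in TrB_WT to 1.33 in eMZB_WT. Myadm, a membrane protein of the MAL family (Entrez 50918, chromosome 7, 3289038 to 3299355), had 28.2, 27.1 and 30.8 in TrB_WT and 1.32, 1.38 and 1.78 in eMZB_WT (log2 change -3.58, SE 0.15, adjusted p = 2.3e-08). Col5a3, a collagen chain, had 12.5, 10.4 and 13.1 in TrB_WT and 0.0462, 0.0994 and 0.208 in eMZB_WT (log2 change -3.54, SE 0.15, adjusted p = 2.3e-08). Wfdc21 and Col5a3 were at or near 0 in every eMZB_WT library, and Myadm was low but above 1 scaled FPKM there. Serinc5, a membrane protein that restricts retroviruses, had 33.8, 32.1 and 35.8 in TrB_WT and 3.36, 3.52 and 4.38 in eMZB_WT (log2 change -2.88, SE 0.10, adjusted p = 1.9e-08). Atp1b1, a subunit of the sodium pump, had 18.1, 17.4 and 9.75 in TrB_WT and 1.38, 1.51 and 1.04 in eMZB_WT (log2 change -2.76, SE 0.19, adjusted p = 9.3e-07). Both were lower in every eMZB_WT library than in any TrB_WT library. Niban3, a B cell protein also known as BCNP1, fell from 128, 133 and 94.6 in TrB_WT to 21.7, 20.3 and 22.3 in eMZB_WT (log2 change -2.40, SE 0.13, adjusted p = 1.8e-07). Further falls among the 15 largest were Rgs2, given above, Pafah1b3 (-2.50), Smim24 (-2.26), Csrp2 (-2.18), Ccdc88b (-2.16), Dusp10 (-2.12), Akap12 (-2.11) and Gh (-2.01), each with its log2 change. Gh, growth hormone, had 7.54, 5.60 and 7.83 in TrB_WT and 1.11, 1.04 and 0.781 in eMZB_WT. It lies 7637 bases from Cd79b on chromosome 11, a gene of higher level that also fell.

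The change was compared with that of the knockout libraries by an interaction term. A single gene of 9842 (0.0102%) differed between the genotypes at an adjusted p under 0.05 by limma, Flt3, while 674 (6.85%) had an unadjusted p under 0.05. Flt3, a cytokine receptor of progenitors and dendritic cells, had 0.864, 0.747 and 0.721 in TrB_WT and 1.06, 0.737 and 0.675 in eMZB_WT in wild type, and 0.469, 0.402 and 0.430 in TrB_KO and 5.67, 4.52 and 5.27 in eMZB_KO. It was not called in wild type (log2 change 0.033) and rose by 2.10 in the knockout libraries, a difference of -2.06 (SE 0.19, adjusted p = 9.1e-04), the eMZB_KO libraries being the high ones. Of the genes with at least 2-fold in wild type, 222 of 224 rises and 254 of 273 falls had the same sign in the knockout libraries, with medians of 1.30 in wild type and 1.21 in knockout for rises and -1.25 and -0.98 for falls. These genes were picked by their wild-type change, so smaller knockout medians can follow from that choice. The share of all genes with the same sign was not counted, and across all genes the wild-type and knockout changes had a Pearson r of 0.81. Both comparisons share no library, and a p that misses the threshold does not show that the genotypes act alike. TrB_KO replicate 3 stood apart, with 61.6% of its reads in listed genes against 17.2% and 20.9% in replicates 1 and 2. It had 285 listed genes at 0, against 49 and 31. This library entered the knockout change, the interaction and the shared spread. Without it 1676 genes rose and 1731 fell in wild type, and 1 was called in the interaction. Cr2, Dtx1 and Slc7a5 had log2 changes of 2.20, 3.04 and 3.25 in the knockout libraries and 2.77, 2.80 and 3.38 in wild type.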

How the data were processed

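Per the labels' protocols, each library began with the RNA of 2000 sorted cells and was amplified by SMART-Seq v4 and prepared with Nextera XT. These kits do not mark strand. STAR and mm10 stand in the submitters' processing notes. For the counting program, the annotation and read totals the sources used here name nothing. As deposited by the authors, the table holds FPKM for 9842 genes by Entrez ID in 12 libraries, each gene at 1 FPKM or more in at least 3, and 0 value columns were left unused. A gene can meet this minimum in a single group, so list members low in the other group may be listed only through the group where they are high. Of the IDs 9833 matched a symbol in RefSeq (GRCm38.p6). Positions are from that annotation and counted from 1.

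Each column was divided by its median-of-ratios factor (0.613 to 2.14). Log2(value + 1) was fitted with limma 3.58.1 in R 4.3.3 (lmFit, eBayes with trend) as 4 group means over 12 libraries with 8 residual degrees of freedom, so the spread is shared with the knockout libraries. Benjamini-Hochberg adjustment ran over all listed genes, without a further filter on low values. A fold change on this scale understates that of low genes. Folds printed as such are ratios of mean scaled FPKM. Whole reads were recovered from the FPKM steps, 100% of values being whole within 0.02 reads. They served for depth and for voom, and reads without molecular identifiers bound counting error alone. The fit was checked on simulated data.

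The 15 largest rises and 15 largest falls with a higher mean of at least 5 and no overlap, sorting markers and, per list, the 6 members with the smallest adjusted p and any at 2-fold or more could be named, and not all are. Some results on single genes are not reported here. Notch2, Rbpj, S1pr1, Cd1d1, Slc1a5 and the variable genes beside Cxcl12 were named outside that rule or after their values were seen. Members and the 52 gene lists were chosen with earlier results of these data known. Alternatives were other scalings, a pseudocount of 0.1, a filter, wild-type libraries alone, a replicate block, voom, treat, each library left out, both wild-type replicate 3 libraries left out and, added after the data were seen, subtraction of the receptor-gene level.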

Additional observations from a re-analysis of the deposited data

Results flagged for a closer look

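Flt3 is the gene for which the change from transitional to cultured marginal zone B cells differed between the genotypes by the interaction test. The wild-type change minus the knockout change was -2.06 on the log2 scale, and the adjusted p was 9.1e-04 in limma. It kept its sign and call in each alternative in which it was tested, with -2.16 to -2.004 when single libraries, or both wild-type replicate 3 libraries, were left out. Of the genes in the interaction it was the 1 past the threshold, and groups of 3 libraries are too small for a test of single outlying libraries.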

How the results depend on the processing

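With FPKM as deposited 117 genes were called lower, 1522 higher by at least 2-fold and 58 lower by at least 2-fold, and 15 in the interaction. With genes of a mean of at least 5 scaled FPKM alone, 4415 genes, 661 were called lower, 141 higher and 95 lower by at least 2-fold, and 0 in the interaction (Flt3 lies under that mean). Against a 1.5-fold change with treat 154 rose and 150 fell, 146 and 136 of them by at least 2-fold. A pseudocount of 0.1 gave 424 rises of at least 2-fold, voom on recovered reads 436, and subtraction of the receptor-gene level, chosen after the data were seen, 758, with 2 interaction genes and a median gene at 0.14. A smaller pseudocount enlarges the log2 changes of low genes by construction. The smaller number of genes and the stricter null were likewise set by construction in 2 of these settings. Causes of the other differences were not tested. Leaving out single libraries, or both wild-type replicate 3 libraries, gave 1025 to 1676 rises, 897 to 1731 falls, 211 to 253 and 225 to 311 of at least 2-fold, and 1 to 5 interaction genes, 5 without TrB_WT replicate 3 and 2 without both wild-type replicate 3 libraries. The highest counts, 1676 rises and 1731 falls, were those without TrB_KO replicate 3.

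For the 135 called genes named here the counts were as follows. Direction and call held for 107 as deposited, 134 with equal column sums, 135 with a pseudocount of 0.1, 129 with voom, 126 without both replicate 3 libraries and 114 with the receptor-gene level subtracted. Signs reversed as deposited for Ebf1 (0.15), Ms4a1 (0.27), Pax5 (0.011) and Slc1a5 (0.20), and for the uncalled Cd68 (0.34), Hes1 (0.45) and Rbpj (0.51). With the receptor-gene level subtracted the uncalled Cd1d1 (-0.18), Cd68 (0.22), Ptprc (-0.15), Rbpj (0.47) and S1pr1 (-0.072) reversed, and with voom Kdm1a (-0.017). Leaving out libraries moved the uncalled Cd1d1 between -0.041 and 0.12, Flt3 between -0.058 and 0.091, Kdm1a between -0.25 and 0.32 (-0.026 without both replicate 3 libraries) and Lck between -0.020 and 0.36.

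Same-numbered TrB_WT and eMZB_WT libraries had deviations from their group means that correlated at 0.070, 0.015 and 0.27 across genes. Wild-type pairs with unlike numbers lay between -0.23 and 0.22. The pair of replicates 3 was thus the highest in wild type, and at 0.29 it was also the highest in knockout. Whether libraries numbered 3 share an effect was not tested, and the main fit did not pair libraries by number. With the replicate number as a block within genotype 1522 genes rose, 1335 fell, 229 and 305 by at least 2-fold, and 1 was called in the interaction. Read totals of 7.24 to 19.3 M limit low genes most, and the 3 libraries per group limit every test.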

Other observations

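Genes of translation initiation and protein degradation moved mostly upward. Of 50 translation initiation factor genes 18 rose and 0 fell in eMZB_WT against TrB_WT by limma, and 15 rose and 1 fell without both replicate 3 libraries. Eif4ebp1, a repressor of cap-dependent translation, rose most among them, from 7.93, 12.4 and 7.35 in TrB_WT to 20.7, 16.2 and 21.7 in eMZB_WT (log2 change 1.03, SE 0.20, adjusted p = 0.0023). Of 37 proteasome genes 12 rose and 2 fell, and Psmd7, a subunit of the regulatory particle, had 10.6, 12.3 and 11.6 in TrB_WT and 18.7, 19.5 and 17.3 in eMZB_WT (log2 change 0.64, SE 0.099, adjusted p = 4.7e-04). With the receptor-gene level subtracted 5 of the 50 and 3 of the 37 rose.

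Of 15 p53 target genes 5 rose and 1 fell, with 3 and 0 without both replicate 3 libraries, Sesn2 and Bbc3 among those that rose, and Ccng1, cyclin G1, had 7.56, 6.27 and 6.88 in TrB_WT and 11.3, 14.8 and 14.1 in eMZB_WT (log2 change 0.86, SE 0.17, adjusted p = 0.0023). Of 35 histone methyltransferase and demethylase genes 2 rose and 3 fell, under the background of 14.6% and 12.7%. Eed, a subunit of the Polycomb complex that methylates histone H3, was one that rose, from 10.7, 9.28 and 8.48 in TrB_WT to 15.03, 15.1 and 11.9 in eMZB_WT (log2 change 0.51, SE 0.11, adjusted p = 0.0049). Among cytokine receptors Il2ra, the alpha chain of the interleukin 2 receptor, fell from 2.88, 2.61 and 3.34 in TrB_WT to 0.850, 1.19 and 0.930 in eMZB_WT (log2 change -0.99, SE 0.16, adjusted p = 6.0e-04), and Il2rg, the shared gamma chain, rose from 60.8, 66.4 and 71.5 in TrB_WT to 98.2, 99.3 and 95.5 in eMZB_WT (log2 change 0.56, SE 0.074, adjusted p = 1.6e-04). With the receptor-gene level subtracted neither was called, with log2 changes of -0.98 for Il2ra and 0.29 for Il2rg (adjusted p = 0.050 and 0.262), and as deposited Il2ra was not (-0.43, adjusted p = 0.308). The 273 falls of at least 2-fold held 46 microRNA, snoRNA, snRNA or long noncoding RNA genes, and the 224 rises held 5. The share of such genes among all listed genes was not counted, so these numbers are not read as a result about them. In addition, 143 of the 273 falls and 57 of the 224 rises averaged under 5 scaled FPKM in the higher group. The receptor genes were low as well, and their medians were lower in eMZB_WT after scaling. The part of what lowers those medians in these falls was not tested.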
